A study of Mus musculus with 24 samples.

Results

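The difference between mdx and C57 mice was compared between cultured muscle fibres and muscle fibroblasts in 12 of the 24 libraries of the series, those that received vehicle and no aldosterone. The quantity of interest was the interaction, the difference between mdx and C57 in myotubes minus the same difference in fibroblasts, over the 17435 genes that had enough reads to be tested. A positive interaction means that mdx stood higher against C57 in myotubes than it did in fibroblasts. The 4 groups held 3 libraries each. C57 myotubes came from C57BL/10 mice and mdx myotubes from C57BL/10-Dmdmdx mice, each grown from hindlimb myoblasts of pups under 5 days old, fused, and held for 48 h in 0.001% DMSO. They then received fresh medium for 15 h before lysis. Fibroblasts of the same 2 lines, also from the hindlimb of such pups, were given the 15 h medium of vehicle-treated myotubes of their own line for 24 h. The line of a fibroblast and the line of its medium therefore cannot be told apart, and all 4 groups shared DMSO exposure of the myotubes and charcoal-stripped horse serum. The labels number the libraries of a group as biological replicates and do not say whether a number stands for 1 animal, 1 litter or 1 plating.

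Dystrophin, the product of Dmd, links the actin cytoskeleton of the muscle fibre to the extracellular matrix through a complex of membrane proteins, and mdx mice lack the full-length protein. Myotubes are multinucleate cells formed by fusion of myoblasts and carry sarcomeres. Muscle fibroblasts make the collagens and other matrix proteins of the tissue, and are a main source of scar in dystrophic muscle. A line difference seen in both cell types and one seen in a single cell type are told apart only by a test of the interaction.

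The libraries held 14133165 to 42698139 counted reads, and replicates of a group correlated at 0.977 to 0.992 (Pearson, log2 level, across genes). Levels are given as CPM, counts per 1000000 counts after scaling by the trimmed mean of M values (TMM) over the 12 libraries. The labelled cell types matched their markers: 10 myotube markers summed to 27002 CPM or more in the 6 myotube libraries and to at most 115 CPM in the 6 fibroblast libraries, whereas 15 fibroblast markers summed to 19045 to 26614 CPM in C57 fibroblasts and 20685 to 24023 CPM in mdx fibroblasts. Within myotubes the markers of other cells differed between the lines. Fibroblast markers summed to 449, 1426 and 1037 CPM in C57 myotubes and to 1730, 5279 and 1994 CPM in mdx myotubes, so that all 3 mdx libraries lay above all 3 C57 libraries. Endothelial markers ran the other way, at 80.0, 179 and 139 CPM in C57 and 30.5, 35.8 and 41.6 CPM in mdx myotubes. The 10 macrophage markers reached 516 and 301 CPM in 2 of the C57 myotube libraries, 13.7 CPM in the third, and 3.85 to 43.5 CPM in mdx myotubes. No fibroblast, macrophage or endothelial marker was at 0 throughout a myotube group, and Tie1 and Emcn were at 0 in mdx fibroblasts. In these bulk samples a change in the number of cells of a type and a change in RNA per cell cannot be told apart, and the part of such cells in the results on myotubes was not tested.

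**Figure D1:**
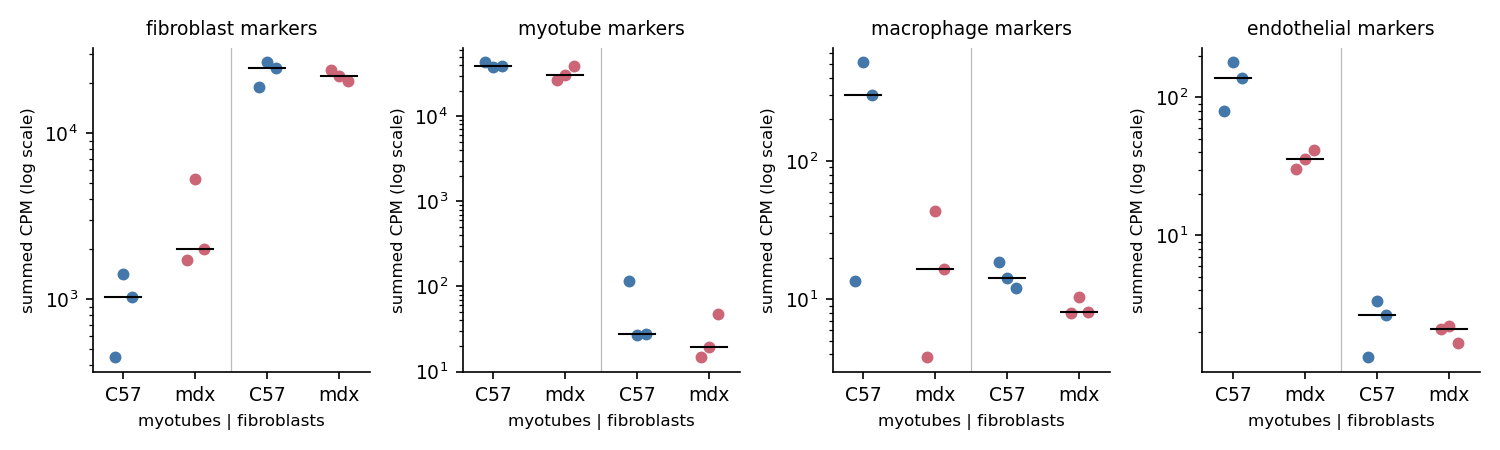
Summed levels of 4 marker lists in each vehicle library, as CPM on log axes, by line and cell type; points are libraries and bars are medians. Fibroblast markers are higher and endothelial markers lower in every mdx myotube library than in every C57 one, while fibroblast markers of the fibroblast cultures overlap between the lines.

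Dmd, the mutated gene, checked the labels in both cell types (chrX:81992476-84249747, mm39, + strand). It stood at 457, 362 and 388 CPM in C57 myotubes and at 35.7, 41.9 and 57 CPM in mdx myotubes. In fibroblasts it stood at 23.1, 29.2 and 30.0 CPM in C57 and at 12.2, 8.57 and 8.81 CPM in mdx. Neither cell type showed any overlap, with the mdx values below the C57 values. Dmd fell by 3.17 on the log2 scale in myotubes (95% confidence interval -3.60 to -2.74; adjusted p = 4.25e-05 by the quasi-likelihood test of edgeR, adjusted by Benjamini and Hochberg's method, as are all p-values below unless named otherwise) and fell by 1.49 in fibroblasts (-1.92 to -1.06; adjusted p = 0.00702). The larger fall in myotubes gave an interaction of -1.68 (-2.27 to -1.10), which did not pass the threshold of 0.05 (adjusted p = 0.0898). The gene count pools all Dmd transcripts, including the short ones that start after the site of the mdx mutation. Utrn, which encodes the dystrophin relative utrophin, had line differences of -0.13 in myotubes and -0.04 in fibroblasts, and an interaction of -0.09 (-0.37 to 0.19; adjusted p = 0.837).

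The interaction passed the test for 1 gene of 17435, which is 0.00574% of those tested. The median interaction over all genes was 0.01 on the log2 scale, and 2071 genes (11.9%) had an unadjusted p under 0.05, 1376 of them positive (7.89%) and 695 negative (3.99%). The median gene had a 95% interval reaching 0.49 to either side, and myotube libraries varied more, with a common biological coefficient of variation of 0.178 against 0.112 in fibroblasts. The count depended on the tool and on 1 library. DESeq2 called 363 genes, limma voom called 1, and edgeR without mdx myotube replicate 3 called 309. It called 38 without C57 myotube replicate 1, 4 without mdx replicate 1, 3 without C57 replicate 2 and 2 without mdx replicate 2, and 1 gene without any of the other libraries.

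The gene that passed was Pmaip1 (chr18:66591604-66598636, mm39, + strand), which encodes Noxa, a BH3-only protein that promotes apoptosis and is a target of p53. In fibroblasts it stood at 22.5, 21.4 and 21.7 CPM in C57 and at 9.75, 8.35 and 10.4 CPM in mdx. In myotubes it stood at 110, 103 and 111 CPM in C57 and at 127, 127 and 104 CPM in mdx. The fibroblast groups did not overlap, with every mdx library below every C57 one, and the myotube groups did. Pmaip1 fell by 1.21 in mdx fibroblasts (-1.42 to -1.0; adjusted p = 7.95e-05), whereas the myotube difference was 0.14 (-0.05 to 0.34; adjusted p = 0.422). The interaction was 1.35 (1.07 to 1.64; adjusted p = 0.00309). It passed in 21 of 22 settings, and missed with line and replicate number as a block of 6 cultures (adjusted p = 0.0709). Over the 22 settings the interaction ran from 1.26 to 1.44. Other genes of cell death and the p53 response gave no call: the interactions were 0.06 for Bax (-0.19 to 0.32), which permeabilises mitochondria, -0.04 for Bbc3 (-0.38 to 0.30), which encodes the BH3-only protein Puma, and 0.01 for the cell-cycle inhibitor Cdkn1a (-0.23 to 0.24). These 3 genes were chosen after their values were seen. In the list of 24 p53 and senescence genes, Pmaip1 was the only one called for the interaction, against 8 higher and 1 lower at an unadjusted p under 0.05 (7.89% and 3.99% over all genes). DESeq2 called 4 of the 24, and edgeR without mdx myotube replicate 3 called 6 (309 over all genes). The DESeq2 count over all genes is given above. Of the same 24 genes, Mdm2, the ubiquitin ligase of p53, and Trp53inp1 rose in mdx myotubes by 0.41 and 0.52 (adjusted p = 0.0482 and 0.0448), with interactions of 0.62 and 0.63 that did not pass (adjusted p = 0.118 and 0.158).

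**Figure D2:**
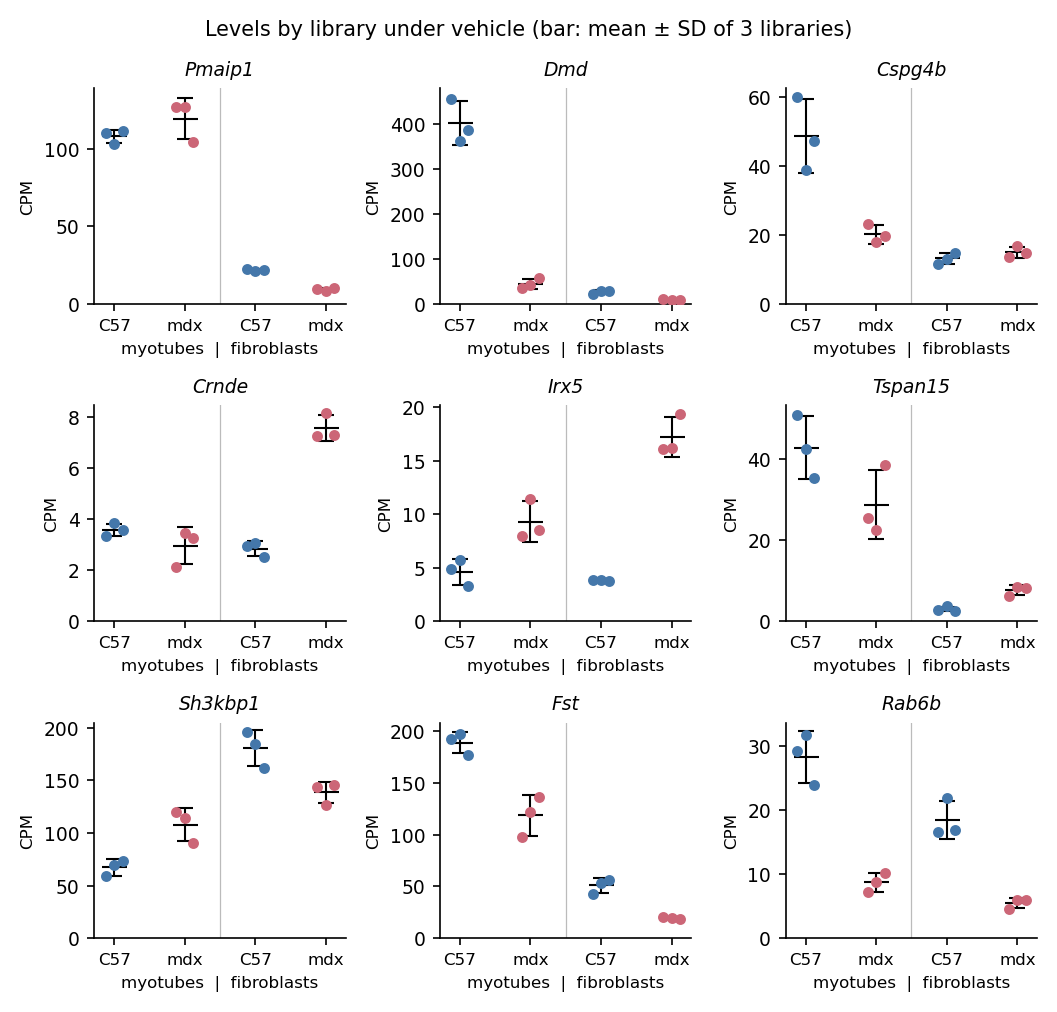
Levels of 9 genes in each of the 12 vehicle libraries, in CPM on linear axes from 0; blue points are C57, red points are mdx, and bars are the mean ± SD of 3 libraries. Pmaip1 is lower in mdx than in C57 fibroblasts, at 8.35 to 10.4 against 21.4 to 22.5 CPM, and overlaps in myotubes, while Rab6b is lower in mdx libraries of both cell types.

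The next 14 genes by p did not pass the test, with adjusted p of 0.0898 to 0.0910, and are given as values. Among all 15, 9 interactions were positive and 6 negative, and for 11 of them the line difference was larger in myotubes than in fibroblasts. In 5 of the 15, the libraries of the 2 lines did not overlap in either cell type and lay in opposite orders, which held for 1.35% of all genes tested. The 15 were chosen by the p of the interaction, which favours such opposite orders, so their share cannot be set against that of all genes. All 15 were called by DESeq2 and by edgeR without mdx myotube replicate 3, 11 with all 24 libraries in 1 fit, 10 with no filter on low counts and 6 without C57 myotube replicate 1. Voom, scaling by RLE or upper quartile and the replicate block by 3 numbers called 1 of the 15, leaving out any other library called 1 or 2, and the block of 6 cultures called 0.

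Those 5 were Sh3kbp1, Zfp469, Wnt10b, Rtkn2 and Plcd3. Sh3kbp1, which encodes an adaptor of receptor endocytosis, stood at 58.6, 69.6 and 73.5 CPM in C57 myotubes and at 120, 114 and 90.2 CPM in mdx myotubes. In fibroblasts it stood at 196, 185 and 162 CPM in C57 and at 143, 127 and 145 CPM in mdx. It was therefore higher in mdx myotubes (0.69; adjusted p = 0.0196) and at lower values in mdx fibroblasts (-0.39; adjusted p = 0.321), for an interaction of 1.07 (0.71 to 1.43). Wnt10b, a secreted Wnt ligand, stood at 3.59, 3.07 and 4.40 CPM in C57 myotubes and 9.61, 6.72 and 7.10 CPM in mdx myotubes, a rise of 1.13 (adjusted p = 0.0103). Its fibroblast levels were 22, 20.5 and 17.4 CPM in C57 and 15, 17 and 17.1 CPM in mdx, a difference of -0.29 (adjusted p = 0.769). The lowest C57 and the highest mdx fibroblast library of Wnt10b were close together. The zinc finger gene Zfp469 stood at 16.8, 18.7 and 17.9 CPM in C57 myotubes and at 24.2, 30.6 and 27.0 CPM in mdx myotubes, a rise of 0.61 (adjusted p = 0.0224). It was far more abundant in fibroblasts, at 166, 138 and 141 CPM in C57 and 124, 106 and 125 CPM in mdx, a difference of -0.33 (adjusted p = 0.321). Its interaction was 0.94 (0.62 to 1.25).

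Rtkn2 and Plcd3, the latter encoding a phospholipase C, had the reverse order. Rtkn2 stood at 3.45, 3.70 and 3.87 CPM in C57 myotubes and at 1.65, 1.59 and 1.95 CPM in mdx myotubes, and at 1.13, 1.09 and 1.07 CPM in C57 and 1.69, 1.62 and 1.34 CPM in mdx fibroblasts. Plcd3 stood at 18.9, 19.3 and 22.2 CPM in C57 myotubes and 15.5, 15.9 and 15.2 CPM in mdx myotubes, and at 27.7, 27.2 and 28.2 CPM in C57 and 32.4, 34.1 and 32.2 CPM in mdx fibroblasts. Rtkn2 fell by 1.09 and Plcd3 fell by 0.37 in mdx myotubes (adjusted p = 0.0222 and 0.0363), and their fibroblast differences were 0.50 and 0.25 (adjusted p = 0.550 and 0.319). The interactions were -1.59 for Rtkn2 (-2.17 to -0.997) and -0.62 for Plcd3 (-0.86 to -0.39).

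Of the remaining genes, Spred2, Prrg4, Gm47583 and Ttc37 were called in myotubes and not in fibroblasts, and Sema3a was called in neither. Spred2, an inhibitor of Ras and ERK signalling, stood at 33.8, 35.6 and 36.8 CPM in C57 and 55.8, 57.9 and 50.3 CPM in mdx myotubes. It rose by 0.63 in mdx myotubes (adjusted p = 0.00449) and had a fibroblast difference of -0.08 (-0.25 to 0.10). Prrg4, which encodes a transmembrane Gla protein, rose by 0.80 in mdx myotubes (adjusted p = 0.00789), against -0.15 in fibroblasts (-0.41 to 0.10). The transcript Gm47583 rose by 2.46 in mdx myotubes (adjusted p = 0.00285), from 0.872 to 1.12 CPM in C57 to 3.47 to 7.33 CPM in mdx, against -0.05 in fibroblasts (-0.70 to 0.61). Ttc37, a subunit of the complex that feeds RNA to the exosome, rose by 0.73 in mdx myotubes (adjusted p = 0.000138), and its fibroblast difference of 0.23 had the same direction (adjusted p = 0.195). Sema3a, a repulsive guidance ligand, stood at 61.4, 62.3 and 70.4 CPM in C57 and 86.7, 90.5 and 69.9 CPM in mdx myotubes, and at 103, 93.2 and 87.9 CPM in C57 and 72.1, 67.6 and 66.7 CPM in mdx fibroblasts. Its groups overlapped in myotubes and not in fibroblasts. It had a positive value in myotubes (0.35; adjusted p = 0.0832) and a negative one in fibroblasts (-0.46; adjusted p = 0.0789).

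Of the 15, 2 rose in mdx fibroblasts. Tspan15, a tetraspanin, stood at 2.85, 3.66 and 2.57 CPM in C57 fibroblasts and at 6.14, 8.31 and 8.24 CPM in mdx fibroblasts, a rise of 1.33 (adjusted p = 0.0380). In myotubes its values were 50.7, 42.4 and 35.2 CPM in C57 and 25.3, 22.3 and 38.4 CPM in mdx, with overlapping groups and a difference of -0.58 (adjusted p = 0.159). The other was the long non-coding RNA Crnde, which lies beside the Iroquois genes and is described with them below.

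**Figure D3:**
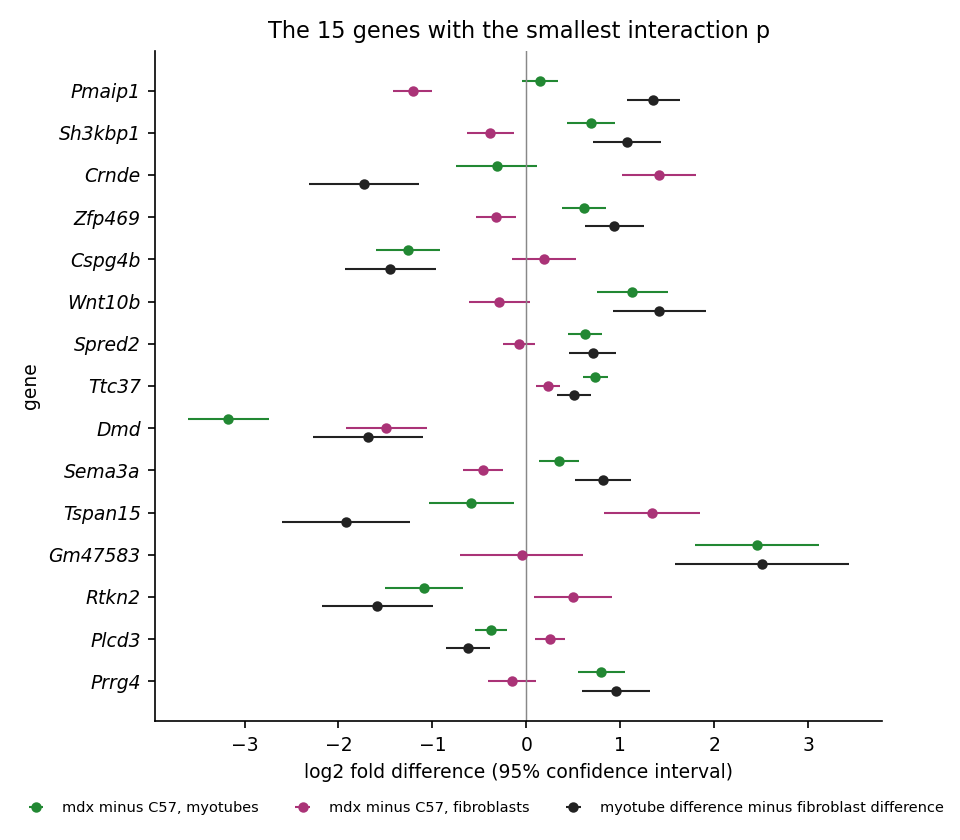
Estimates for the 15 genes with the smallest interaction p, as log2 fold differences with 95% confidence intervals: mdx minus C57 in myotubes, the same in fibroblasts, and the interaction. Only Pmaip1, at 1.35, passed the adjusted test for the interaction; Dmd is lower in mdx in both cell types.

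Irx3 and Irx5 encode Iroquois homeodomain transcription factors that pattern limb and other tissues. They lie on chromosome 8, with Irx3 at chr8:92525153-92528695 (- strand) and Irx5 at chr8:93084253-93102914 (+ strand, mm39). Crnde (chr8:93052659-93084247) is on the - strand, so its annotated start faces that of Irx5, with 5 bases between them. The libraries keep no strand, so reads of Crnde and of an overlapping transcript could not be told apart. Irx5 stood at 3.85, 3.89 and 3.74 CPM in C57 fibroblasts and at 16.1, 16.2 and 19.4 CPM in mdx fibroblasts. In myotubes it stood at 4.84, 5.68 and 3.28 CPM in C57 and at 7.93, 11.5 and 8.50 CPM in mdx. Irx5 rose in both cell types, by 2.17 in fibroblasts (adjusted p = 0.000132) and by 0.98 in myotubes (adjusted p = 0.0295), for an interaction of -1.19 (-1.77 to -0.62; adjusted p = 0.129). Irx3 stood at 24.1, 28.8 and 27.9 CPM in C57 fibroblasts and at 78.9, 98.5 and 125 CPM in mdx fibroblasts, and at 10.2, 10.8 and 11.8 CPM in C57 and 14.5, 27.4 and 18 CPM in mdx myotubes. It rose by 1.91 in mdx fibroblasts (adjusted p = 0.00256) and had a myotube difference of 0.86 (adjusted p = 0.0844). Crnde stood at 2.95, 3.07 and 2.51 CPM in C57 fibroblasts and at 7.26, 8.16 and 7.29 CPM in mdx fibroblasts, a rise of 1.41 (adjusted p = 0.00331). In myotubes its groups overlapped, at 3.35, 3.84 and 3.58 CPM in C57 and 2.13, 3.47 and 3.28 CPM in mdx, a difference of -0.32 (-0.74 to 0.11). The 3 neighbours were thus all higher in mdx fibroblasts, and in myotubes the value of Crnde had the opposite sign to those of Irx3 and Irx5. Irx3, Irx5, the 3 genes of the next sentence and Fst were chosen after their values were seen. Further from Crnde, on the other side of Irx3, Fto, Rbl2 and Chd9 had fibroblast differences of -0.19, -0.41 and 0.08 that were not called. Their myotube differences were called at -0.32, -0.48 and 0.51 (adjusted p = 0.0356, 0.0374 and 0.0273).

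Neighbouring genes on chromosome 13 also differed in unlike ways. Esm1 (chr13:113346193-113354632, mm39, + strand), which encodes the secreted proteoglycan endocan, an endothelial marker, fell in both cell types: from 39.5, 44.8 and 55.2 CPM in C57 to 0.371, 0.152 and 0.458 CPM in mdx fibroblasts, and from 9.68, 21.2 and 30.3 CPM in C57 to 0.378, 0.604 and 0.936 CPM in mdx myotubes. Esm1 fell by 7.29 in fibroblasts (adjusted p = 0.000197) and fell by 5.12 in myotubes (adjusted p = 0.00255), and no library of one line reached those of the other. The interaction of Esm1 was 2.17 with a wide interval (0.11 to 4.23; adjusted p = 0.395). Cspg4b (chr13:113429693-113516245, + strand) starts 75.1 kb after the end of Esm1. It stood at 59.9, 38.8 and 47.0 CPM in C57 myotubes and at 23.2, 17.8 and 19.6 CPM in mdx myotubes, a fall of 1.26 (adjusted p = 0.00330). In fibroblasts it stood at 11.7, 13.2 and 14.7 CPM in C57 and 13.5, 16.7 and 14.7 CPM in mdx, with overlapping groups and a difference of 0.19 (-0.15 to 0.53). The interaction was -1.45 (-1.93 to -0.96; adjusted p = 0.0898). Fst (chr13:114588826-114595487, - strand), which encodes the activin antagonist follistatin, fell in both cell types, by 0.68 in myotubes (adjusted p = 0.0236) and by 1.41 in fibroblasts (adjusted p = 0.000197).

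The stretches of 250 bases before the annotated starts of Crnde, Esm1 and Cspg4b are shown because these neighbours differed between the lines in unlike ways. They are RefSeq sequences of build GRCm38.p6, on the strand of each gene, and are not the build of the counts. Crnde is at chr8:92356121-92356370 (- strand), Esm1 at chr13:113209409-113209658 (+ strand) and Cspg4b at chr13:113292920-113293169 (+ strand). Capitals mark matches on either strand to CAGCTG, an E-box of the kind bound by myogenic factors, and to GGGCGG, the GC box.
Crnde: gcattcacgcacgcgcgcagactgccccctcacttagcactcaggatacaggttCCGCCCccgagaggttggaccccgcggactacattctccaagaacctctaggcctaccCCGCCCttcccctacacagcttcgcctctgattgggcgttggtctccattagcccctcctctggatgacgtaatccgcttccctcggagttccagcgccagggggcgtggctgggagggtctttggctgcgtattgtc
Esm1: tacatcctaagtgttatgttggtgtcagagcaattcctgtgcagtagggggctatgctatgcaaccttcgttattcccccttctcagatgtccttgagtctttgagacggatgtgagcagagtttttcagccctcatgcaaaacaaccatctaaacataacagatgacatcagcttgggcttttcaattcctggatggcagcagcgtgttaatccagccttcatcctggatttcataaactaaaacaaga
Cspg4b: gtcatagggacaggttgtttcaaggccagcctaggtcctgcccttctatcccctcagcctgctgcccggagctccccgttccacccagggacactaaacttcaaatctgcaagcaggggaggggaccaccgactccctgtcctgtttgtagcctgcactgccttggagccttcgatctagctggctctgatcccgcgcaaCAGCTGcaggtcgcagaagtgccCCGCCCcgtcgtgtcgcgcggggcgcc
Crnde held 2 GC boxes and no CAGCTG, Esm1 held neither, and Cspg4b held 1 of each. Of 32851 such stretches in the table, 13.0% held CAGCTG and 32.7% held GGGCGG. The share of G and C was 62.0% for Crnde, 44.0% for Esm1 and 63.2% for Cspg4b.

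Line differences were called for 292 genes in myotubes (1.67% of those tested), of which 188 were higher (1.08%) and 104 lower in mdx (0.597%). In fibroblasts 61 were called (0.35%), of which 25 were higher (0.143%) and 36 lower (0.206%). At an unadjusted p under 0.05 the shares were 18.4% in myotubes and 7.17% in fibroblasts. Of these, 29 were called in both cell types (0.166%), which is 9.93% of the myotube calls and 47.5% of the fibroblast calls. All 29 had the same direction, 13 higher and 16 lower. Counted without a test, the libraries of the lines did not overlap for 18.7% of genes in myotubes and 16.5% in fibroblasts. They did so in both cell types in the same direction for 2.21%, higher in mdx for 1.14% and lower for 1.07%, and in opposite directions for 1.35%, of which 1.0% had mdx higher in myotubes and 0.35% had it lower. The remaining 263 myotube calls and 32 fibroblast calls passed in a single cell type, which does not show that they were particular to it, since the interaction passed for Pmaip1 alone. The myotube count was 1600 without mdx myotube replicate 3, and 62, 77 and 69 without mdx replicate 2, C57 replicate 2 or C57 replicate 3. Without a fibroblast library it was 123 to 234, and it was 6 when myotubes were fitted without the fibroblasts. The fibroblast count was 36 without C57 fibroblast replicate 2, 26 without mdx fibroblast replicate 2, 31 without mdx fibroblast replicate 3, 40 without C57 myotube replicate 3, and 131 when fibroblasts were fitted alone. The shared count was 15 without C57 myotube replicate 3, 17 without C57 myotube replicate 2 or mdx fibroblast replicate 2, 16 without mdx fibroblast replicate 3 and 19 without C57 fibroblast replicate 2 or 3. Among the 263 genes called in myotubes alone, 156 had the same sign in fibroblasts, the median size in myotubes was 0.82, and the median fibroblast difference in the same direction was 0.05. Among the 32 called in fibroblasts alone, 24 had the same sign in myotubes, the median size was 1.36 in fibroblasts, and the median myotube difference in the same direction was 0.26. These values describe genes chosen on the line difference itself, which favours a larger size in the cell type used for the choice. In 35 of the 263 and 7 of the 32, the other cell type stayed below 1 CPM in both lines.

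**Figure D4:**
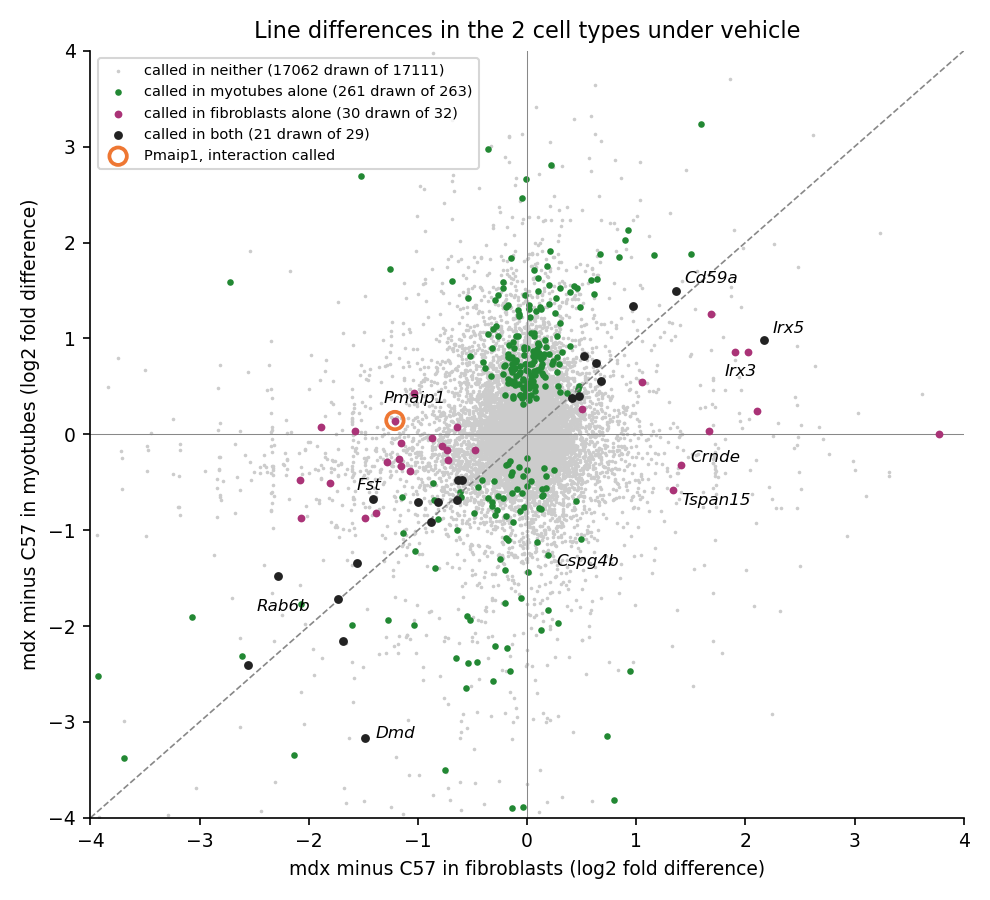
Line differences of single genes, mdx minus C57 as log2 fold differences, in fibroblasts (x) and myotubes (y); 17374 genes lie within the axes and 61 lie outside. The dashed line marks equal differences; genes called in both cell types lie in the quadrants of equal sign, and Pmaip1, the gene called for the interaction, lies at -1.21 in fibroblasts and 0.14 in myotubes.

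Some genes called in fibroblasts alone are given next, chosen after their values were seen. L1cam, a neural adhesion molecule, stood at 3.23, 2.21 and 2.81 CPM in C57 and 9.90, 9.05 and 7.40 CPM in mdx fibroblasts, and at 3.50, 2.23 and 2.46 CPM in C57 and 2.58, 2.57 and 3.28 CPM in mdx myotubes. It rose by 1.67 in mdx fibroblasts (adjusted p = 0.00256) against 0.03 in myotubes (-0.47 to 0.53), for an interaction of -1.64 (-2.31 to -0.97; adjusted p = 0.0960). Nrcam, a relative of L1cam, went the other way, from 90.4, 55.7 and 66.8 CPM in C57 to 20.4, 22.5 and 28.5 CPM in mdx fibroblasts, where it fell by 1.58 (adjusted p = 0.0342). Its myotube libraries overlapped, and its interaction was 1.61 (0.82 to 2.39; adjusted p = 0.135). Npnt, which encodes the integrin ligand nephronectin, and Lpp, a focal adhesion protein gene, fell by 1.16 and fell by 0.73 in mdx fibroblasts (adjusted p = 0.00702 and 0.00845). Every mdx myotube library was also below every C57 one for Npnt, with a difference of -0.33 (-0.65 to -0.01; adjusted p = 0.249). Lpp overlapped in myotubes, with a difference of -0.16 (-0.39 to 0.07). Socs2, an inhibitor of growth hormone signalling, fell by 0.87 in mdx fibroblasts (adjusted p = 0.00899) against -0.03 in myotubes (-0.31 to 0.24), with an interaction of 0.84 (adjusted p = 0.118).

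Other genes with opposite signs in the cell types, also chosen after their values were seen, missed the interaction test by little. Dio2, the deiodinase that activates thyroid hormone, stood at 26.6, 11.7 and 10.1 CPM in C57 and 45.4, 48.8 and 66.8 CPM in mdx myotubes, a rise of 1.72 (adjusted p = 0.0292). Its fibroblast levels were 2.93, 3.49 and 2.51 CPM in C57 and 1.27, 1.30 and 1.14 CPM in mdx, a difference of -1.26 (adjusted p = 0.414), for an interaction of 2.98 (1.84 to 4.11; adjusted p = 0.0960). Lef1, a transcription factor of Wnt signalling, had line differences of 0.61 in myotubes and -1.24 in fibroblasts, neither called, and an interaction of 1.85 (1.11 to 2.59; adjusted p = 0.0934). Bcl2, which inhibits apoptosis, had 0.49 and -0.60, and an interaction of 1.09 (0.66 to 1.52; adjusted p = 0.0934). For Dio2, Lef1 and Bcl2 the libraries of the lines did not overlap in either cell type.

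Some genes were called in both cell types with nearly the same difference. Rab6b, a small GTPase of Golgi transport, fell from 29.2, 31.9 and 24.0 CPM to 7.24, 8.83 and 10.1 CPM in mdx myotubes and from 16.7, 21.9 and 16.8 CPM to 4.61, 5.91 and 6.03 CPM in mdx fibroblasts. Its interaction was 0.01, with an interval of -0.48 to 0.50. Cd59a, which protects cells from the complement membrane attack complex, rose by 1.5 in myotubes (adjusted p = 0.00449) and by 1.36 in fibroblasts (adjusted p = 0.00642), with an interaction of 0.13 (-0.45 to 0.71). Orai1, the pore of store-operated calcium entry, rose by 0.56 in myotubes (adjusted p = 0.00512) and by 0.68 in fibroblasts (adjusted p = 0.00164), with an interaction of -0.12 (-0.35 to 0.12). Mri1, an enzyme of methionine salvage, fell by 0.71 and 0.82 (adjusted p = 0.000439 and 7.95e-05), with an interaction of 0.11 (-0.10 to 0.31). These 4 were chosen after their values were seen.

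Of the 29 shared genes, 6 had no reads in any library of 1 line, in both cell types, and no interaction could be estimated for them. Tlr4, the receptor of bacterial lipopolysaccharide (chr4:66745821-66848521, mm39), had 0 reads in all 6 C57 libraries, and stood at 23.5, 22 and 25.2 CPM in mdx myotubes and 28.6, 28.3 and 27.6 CPM in mdx fibroblasts. Set against a floor of 3 counts per library, Tlr4 was at least 105-fold higher in mdx myotubes and at least 280.9-fold higher in mdx fibroblasts. The labels name no substrain of the C57BL/10 mice. For the other 23 shared genes the interaction interval included 0 in 17, with a median reach of 0.45 to either side, and the difference was larger in fibroblasts in 14.

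The chromosomes of the genes called in both cell types were counted without a test. Chromosome 13 held the most, 6 of the 29 (20.7%) and 3.92% of the genes tested, and chromosome 8 held 5 (17.2%) and 5.31%. Chromosomes 4 and 18 held 3 each (10.3%), with 5.98% and 2.82% of the genes tested. Chromosomes 13 and 8 held 9.25% and 11.6% of the myotube calls and 13.1% and 14.8% of the fibroblast calls. On chromosome 13 the shared genes were Esm1, Fst, Glrx, Adcy2, Slc38a9 and Zfp874a, and on chromosome 8 they were Irx5, Gcsh, Mri1, Wdr83os and Gm45640.

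Of the 34 gene lists, the collagens had the highest median interaction, followed by chemokines and cytokines, sarcomere genes and matrix glycoproteins. The lowest was that of cell cycle genes, at -0.28. Among the 10 marker lists, kept apart from these 34, tenocyte and fibroblast markers had higher medians than the collagens, at 1.23 and 1.20. Macrophage and leukocyte markers had -1.85 and endothelial markers had -1.17. With all libraries edgeR called no member of any list named here for the interaction. For 28 collagen genes the median line difference was 0.63 in myotubes and -0.34 in fibroblasts, and the median interaction was 0.98, beside 0.01 over all genes. Of these, 26 had a positive interaction (51.4% over all genes), 10 of them at an unadjusted p under 0.05 (7.89% over all genes). None was called for the interaction by edgeR or voom, 2 were called by DESeq2, and 1 by edgeR without mdx myotube replicate 3 (309 over all genes). The DESeq2 count over all genes is given above. Col7a1 rose and Col24a1 fell in mdx myotubes, where 1.67% of all genes were called. Col7a1, the collagen of anchoring fibrils, stood at 6.08, 9.03 and 9.24 CPM in C57 myotubes and 23.7, 25.7 and 16.8 CPM in mdx myotubes, a rise of 1.45 (adjusted p = 0.00676). Its fibroblast levels overlapped, with a difference of -0.02 (-0.44 to 0.40). Col1a1, a chain of fibrillar collagen I, stood at 176, 559 and 447 CPM in C57 myotubes and 763, 2107 and 849 CPM in mdx myotubes. Its fibroblast levels were far higher, at 6862, 11080 and 9946 CPM in C57 and 9604, 7719 and 7493 CPM in mdx. Col1a1 is itself a fibroblast marker, and its myotube difference of 1.65 did not pass (adjusted p = 0.107), nor did its interaction of 1.82 (0.34 to 3.31; adjusted p = 0.326). The 6 myotube libraries had the same order in Col1a1 as in the summed fibroblast markers. Col1a1 is part of that sum, at 763 of 1730 CPM in mdx myotube replicate 1, so the like order is partly built in. The part of fibroblasts in the Col1a1 difference was not tested.

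The 46 matrix glycoproteins and proteoglycans had medians of 0.84 in myotubes and -0.07 in fibroblasts, and 39 positive interactions (51.4% over all genes). In myotubes 1 member was called (1.67% over all genes), against 0 by voom, 15 by DESeq2 and 11 without mdx myotube replicate 3. Over all genes 1600 were called without that library, and the counts of DESeq2 and voom are given below. The member called by edgeR with all libraries was Spp1, the secreted phosphoprotein osteopontin. It stood at 1472, 1501 and 1771 CPM in C57 myotubes and 2717, 2845 and 2719 CPM in mdx myotubes. Spp1 rose by 0.80 in mdx myotubes (adjusted p = 0.0316), and its fibroblast difference was -0.13 (-0.48 to 0.22), with an interaction of 0.94 (0.44 to 1.43; adjusted p = 0.148). In 39 matrix enzymes and inhibitors, Bmp1, Serpine2 and Timp2 were called higher in mdx myotubes, as were 1.08% of all genes. Voom called 1 of the 39 in myotubes, higher in mdx. The medians of this list were 0.47 in myotubes and -0.08 in fibroblasts. The interaction of the matricellular genes Ccn2 and Postn was 0.82 and 1.25, with intervals that included 0 (-0.05 to 1.68 and -0.25 to 2.74). Acta2, the smooth muscle actin of myofibroblasts, had an interaction of 0.24 (-0.34 to 0.82). For 29 chemokine and cytokine genes the medians were 0.55 in myotubes and -0.17 in fibroblasts. Of their interactions 24 were positive (51.4% over all genes), 7 of them at an unadjusted p under 0.05 (7.89% over all genes). Neither edgeR nor voom called any of the 29 for the interaction, DESeq2 called 3, and edgeR without mdx myotube replicate 3 called 2. Over all genes that last fit called 309, and the DESeq2 count is given above.

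Among secreted signals, Wnt10b and Wnt5a rose in mdx myotubes, where 1.08% of all genes were called higher. The 41 Wnt signalling genes had medians of 0.26 in myotubes and -0.17 in fibroblasts. For the interaction 8 of the 41 were higher and 1 lower at an unadjusted p under 0.05, against 7.89% and 3.99% over all genes. None was called by edgeR or voom, DESeq2 called 4, and edgeR without mdx myotube replicate 3 called 3. Over all genes that last fit called 309, and the DESeq2 count is given above. Wnt10b and Lef1 also passed with no filter and with all 24 libraries in 1 fit. Wnt5a, like Wnt10b a secreted ligand, rose by 0.90 in mdx myotubes (adjusted p = 0.0236), with an interaction of 1.22 (0.74 to 1.70; adjusted p = 0.0934). Of the 43 genes of TGF-beta and BMP signalling, Inhba, Grem1 and Bmp1 rose and Gdf11 and Fst fell in mdx myotubes. Over all genes 1.08% were called higher and 0.597% lower there. In fibroblasts edgeR called Fst alone (0.35% over all genes), and DESeq2, whose count over all genes is given below, called 3, all lower. At an unadjusted p under 0.05, 10 of the 43 were lower in mdx fibroblasts (4.15% over all genes) and 0 were higher. Inhba, which encodes the activin A subunit that follistatin binds, stood at 72.6, 109 and 119 CPM in C57 myotubes and 228, 228 and 165 CPM in mdx myotubes, a rise of 1.05 (adjusted p = 0.0222). In fibroblasts Inhba stood at 409, 423 and 380 CPM in C57 and 318, 279 and 350 CPM in mdx, with groups that did not overlap in the reverse order and a difference of -0.36 (adjusted p = 0.739). The interaction of Inhba was 1.40 (0.86 to 1.95; adjusted p = 0.0934).

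Calls in the lists of the muscle programme depended on 1 library, as did calls over all genes. Without mdx myotube replicate 3, the myotube calls over all genes went from 292 to 1600. The number lower in mdx myotubes went from 1 to 7 for the dystrophin complex and from 0 to 6 for calcium handling. For myogenic regulators it went from 0 to 5, and for sarcomere genes from 0 to 4. The 48 sarcomere genes had medians of -0.28 in myotubes and -1.23 in fibroblasts. With all libraries edgeR called none. At an unadjusted p under 0.05, 4 were lower in mdx myotubes (7.58% over all genes), 9 were lower in mdx fibroblasts (4.15% over all genes) and 4 had a positive interaction (7.89% over all genes). DESeq2, whose counts over all genes are given below, called 2 lower in myotubes, 4 lower in fibroblasts and 0 for the interaction. Voom called 0 in all 3. Myh3, the embryonic myosin heavy chain, stood at 5760, 5181 and 5439 CPM in C57 myotubes and 3764, 4619 and 5561 CPM in mdx myotubes, and at 6.87 CPM or less in every fibroblast library. The fibroblast median of the sarcomere list thus rests on low levels: the 10 myotube markers summed to 27.2 to 115 CPM in C57 fibroblasts and to 14.9 to 47.0 CPM in mdx fibroblasts. In the dystrophin complex, with 22 members, Dmd fell in both cell types and Lama2, the laminin chain that binds the complex from the matrix, fell by 0.78 in mdx fibroblasts (adjusted p = 0.0191), against -0.13 in myotubes (-0.39 to 0.14). Of 30 myogenic regulators and fusion genes, Megf10 fell by 1.16 in mdx fibroblasts (adjusted p = 0.0297). Of 45 cell cycle genes, 44 had positive values in fibroblasts (49.2% over all genes), with a median of 0.32, and 25 had positive values in myotubes, with a median of 0.04. In fibroblasts 4 reached an unadjusted p under 0.05, all higher in mdx, against 526 higher of the 17435 genes tested. Of the 45, edgeR and DESeq2 called 0 in fibroblasts, and voom, whose count over all genes is given below, called 2. The only member edgeR called in either cell type was E2f1, a transcription factor of S phase entry, at 0.57 in myotubes (adjusted p = 0.0455), where DESeq2 called 2 higher and 1 lower. The remaining genes named by rule gave no call: Igf2 had an interaction of -0.07 (-1.41 to 1.27) and Lpl, which encodes lipoprotein lipase, had -2.05 (-3.70 to -0.41; adjusted p = 0.321).

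**Figure D5:**
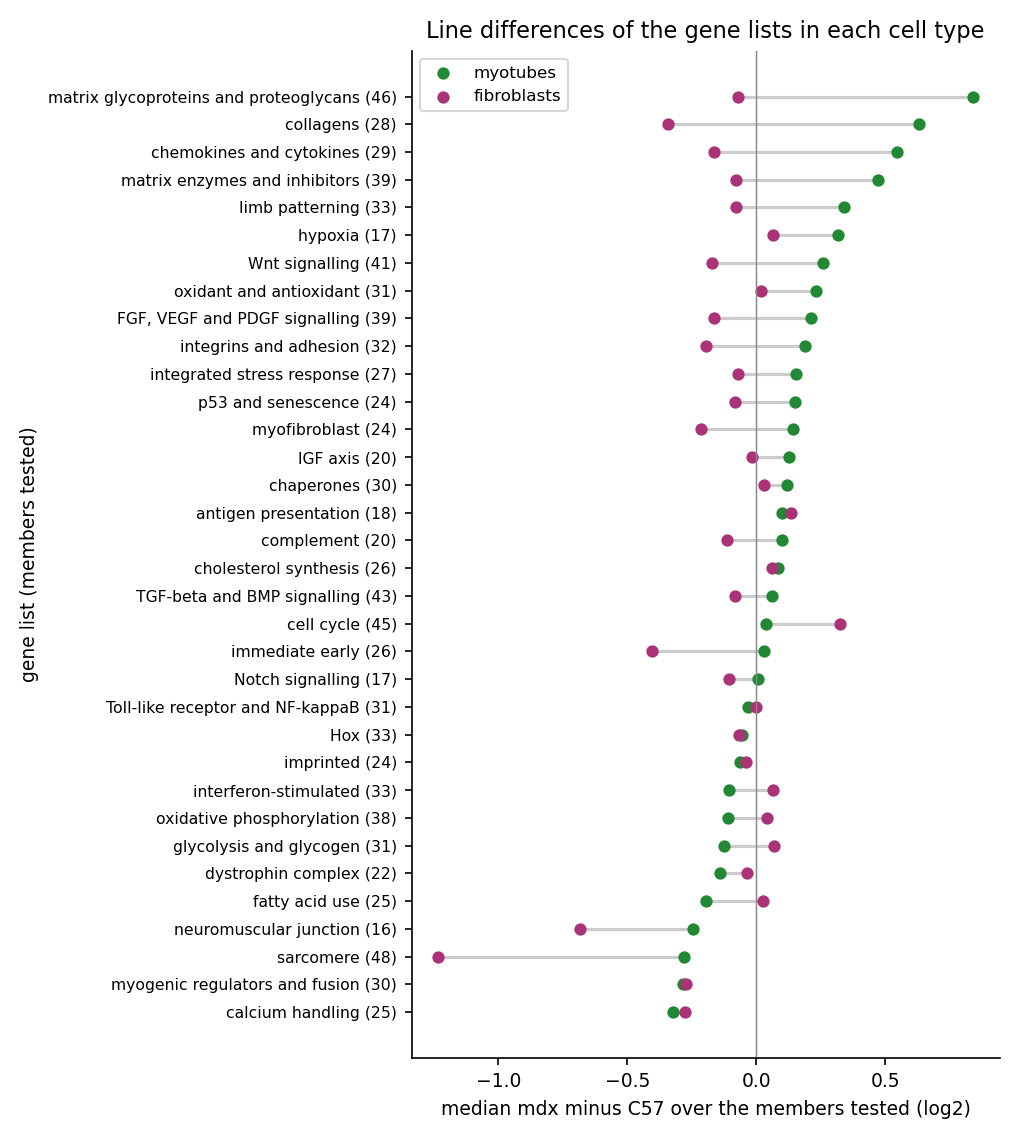
Median line difference (mdx minus C57, log2) of the members tested of 34 gene lists, in myotubes and in fibroblasts, joined by a grey line; the number of members is given beside each name. Matrix lists lie furthest to the right in myotubes, at 0.84 and 0.63, and close to or below 0 in fibroblasts.

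The same interaction was computed in the 12 aldosterone libraries, which the values above did not use, apart from those of the fit of all 24 libraries. They received 1 µM aldosterone, or the medium of myotubes so treated, and may come from the same cultures. All 15 genes with the smallest vehicle p had the same sign there, and 13 had an unadjusted p under 0.05 (12.4% over all genes), the exceptions being Spred2 and Rtkn2. Pmaip1 had an interaction of 1.40 (unadjusted p = 2.4e-05), close to the vehicle value of 1.35. Over 16956 genes, 2 were called under aldosterone (0.0118%), and Pmaip1 missed the threshold (adjusted p = 0.0508). The 2 genes were Dusp27, which encodes an atypical dual-specificity phosphatase of muscle, and AW551984, with interactions of -2.04 and -2.0 under aldosterone (adjusted p = 0.0210 and 0.00967) and of -1.30 and -1.98 under vehicle (adjusted p = 0.183 and 0.109). Whether the interaction of any of these genes differed between vehicle and aldosterone was not tested.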

How the data were processed

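The deposited values are counts of reads per gene, made by the authors; featureCounts 1.5.0-p3 and the build mm39 are named in the submitters' processing notes. The sources used here do not give the aligner or the annotation release. Per the labels' protocols, libraries were made from poly(A) RNA without keeping strand. The table holds 56748 genes and 24 sample columns, all mapped to samples, with 0 count columns without a sample and 0 counts in rows without a gene name. The deposited FPKM values were not used.

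The 12 vehicle libraries were fitted together in R 4.3.3 with edgeR 4.0.16: low genes were removed by its default filter (17435 kept), libraries were scaled by TMM, and 4 group means were fitted with the robust quasi-likelihood method. The 3 contrasts share 1 estimate of spread, although myotubes varied more. Intervals take the standard error as the log2 difference divided by the square root of F, an approximation. P-values were adjusted by Benjamini-Hochberg over all genes tested, and a gene was called below 0.05. They measure the spread between these samples, which may be technical. The script was tested on simulated data.

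Genes were named by rule: with fewer than 10 called, the 15 with the smallest p and 12 fixed genes; others are said to be chosen after their values were seen, or are the called members of a list. The members and lists (34 gene lists and 10 marker lists) were chosen with earlier results of these data known. Alternatives were DESeq2 1.42.0, limma 3.58.1 voom, other scalings, filters, blocks and libraries.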

Additional observations from a re-analysis of the deposited data

Results flagged for a closer look

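The difference between the lines differed between myotubes and fibroblasts by a test of the interaction for Pmaip1, at 1.35 on the log2 scale. For 5 more of the 15 genes with the smallest p, every mdx library lay on 1 side of every C57 library in myotubes and on the other side in fibroblasts: the interaction was 1.07 for Sh3kbp1, 0.94 for Zfp469, 1.42 for Wnt10b, -1.59 for Rtkn2 and -0.62 for Plcd3. The test of the interaction did not pass for these 5, with adjusted p of 0.0898 to 0.0910 by edgeR's quasi-likelihood test. Such opposite orders held for 236 of the 17435 genes (1.35%), of which 175 had mdx higher in myotubes. The choice of the 15 by the p of the interaction favours such orders, so their share cannot be set against this one.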

How the results depend on the processing

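The direction of the interaction held for Pmaip1 and the other 14 genes with the smallest p in all 22 settings, and so did that of the remaining genes named by rule for which it could be estimated, with 1 exception. This was Igf2, which was not called: its interaction of -0.07 was 0.067 with limma voom and ran from -0.52 to 0.23 over the settings. The counts were less stable. With DESeq2, 363 genes had an interaction (271 higher and 92 lower), 1198 a myotube and 226 a fibroblast difference, and 61 were shared. Of the 363, 262 were called in myotubes only, 41 in fibroblasts only, 7 in both with opposite signs, 8 in both with the same sign and 45 in neither. With no filter on low counts the interaction count was 82 (53 myotubes only, 13 fibroblasts only, 3 opposite, 2 same direction, 11 neither), with 527 myotube, 121 fibroblast and 46 shared calls. With all 24 libraries in 1 fit it was 41 (28 myotubes only, 6 fibroblasts only, 2 same direction, 5 neither), with 572 and 103 line differences. Limma voom called 90 genes in myotubes and 172 in fibroblasts. Fitted alone, myotubes gave 6 and fibroblasts 131, with 5 shared.

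Of the distinct list members, 45 were called in myotubes (163 by DESeq2, 17 by voom, 74 with 24 libraries, 2 alone), 12 in fibroblasts (38 by DESeq2, 22 by voom) and 1 for the interaction (63 by DESeq2, 13 with no filter, 6 with 24 libraries, 0 with the culture block). Under aldosterone the count of 2 was 12 with upper-quartile scaling, 370 by DESeq2, 11 by voom, 120 with no filter, 22 among genes at 1 CPM in both cell types, 46 with 24 libraries and 4 with the culture block.

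Leaving out 1 library gave 1 to 309 interaction genes under vehicle (myotubes only 0 to 278, fibroblasts only 1 to 5, opposite 0 to 3, same direction 0 to 1, neither 0 to 22). It gave 0 to 261 under aldosterone, where the highest counts were 261 without mdx myotube replicate 1 and 160 without mdx myotube replicate 3, and the lowest 0 without C57 myotube replicate 2. It gave 62 to 1600 myotube and 26 to 82 fibroblast calls, 15 to 35 shared, and 15 to 177, 8 to 16 and 1 to 42 list members in myotubes, in fibroblasts and for the interaction. The cause of these shifts was not tested.

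The replicate block by 3 numbers gave 2 interaction genes, 1 of them called in both cell types with opposite signs, and the replicate block by 6 cultures gave 0. The deviations of myotubes and fibroblasts with the same number correlated at 0.0155 to 0.158, all positive and below 0.1 in 3 of 6 pairs. Those of the same line with different numbers correlated at -0.142 to 0.0754. The main fit did not take the numbers as pairs, and these values do not settle whether they are. With the block of 6 cultures Pmaip1 missed the threshold (adjusted p = 0.0709 by edgeR's quasi-likelihood test). Scaling by RLE or upper quartile moved the unadjusted split of 1376 higher and 695 lower to 1309 and 768, and to 1264 and 824.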
